A study of Mus musculus with 15 samples.

Results

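Broad H3K27ac domains were described in bone marrow-derived macrophages (BMDMs) of wild-type (WT) mice. H3K27ac is acetylation of histone H3 at lysine 27. A domain was a stretch of at least 10 kb, formed by merging the called H3K27ac regions of 2 WT CUT & RUN seq libraries on chromosomes 1 to 19 and X and overlapped in both of them. This rule gave 545 domains among 36327 merged WT regions found in both libraries, or 1.5% of the regions. They covered 8.04 Mb, which was 9.99% of the merged WT length. The domains were thus chosen by their WT H3K27ac width, so widths and WT cover are given as a description without a test. For each domain the share still covered by H3K27ac in libraries labelled H3.3cKO, the cover by HA-tagged H3.3 and the cover by H3K36me3 (trimethylation of lysine 36) were then measured. Cover means the percent of the bases of a domain that lie in called regions of a library. It holds no signal height.

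H3K27ac marks active promoters and enhancers. In most cells it lies in narrow peaks, and the long stretches occur where clustered enhancers or a strong promoter feed an actively transcribed gene, often one that gives the cell its identity. H3.3 is a histone H3 variant that is placed into chromatin outside DNA replication, above all at active genes and enhancers. H3K36me3 is laid down behind elongating RNA polymerase and fills the bodies of transcribed genes. In CUT & RUN seq an antibody tethers a nuclease to its chromatin target, and the DNA cut free is sequenced.

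The series held 15 samples, and region lists of 10 libraries were used, 2 in each of 5 groups. WT mice carried floxed alleles of both H3.3 genes (H3f3a fl/fl and H3f3b fl/fl) and no Cre. H3.3cKO (cKO) mice carried the same floxed alleles with LysM cre/cre, in which Cre is placed at the myeloid gene Lyz2. H3.3-HA mice carried an HA tag knocked into H3f3b. Male and female mice of C57BL/6 background, 8 to 10 weeks old, were used, and bone marrow was grown to BMDMs with L929-conditioned medium over 6 to 8 days. H3.3-HA cells were taken on day 7. The loss of H3f3b after Cre was described as variable by the study, so a cKO library may hold cells that keep some H3.3. H3K27ac and H3K36me3 were profiled in WT and in cKO, and the HA tag in H3.3-HA cells. The 5 IgG control samples were not analysed here. WT and cKO lists were called against different IgG controls, so control and genotype cannot be told apart.

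The WT H3K27ac libraries held 28366343 and 16444864 tags and the cKO libraries 29988098 and 25560110. The share of tags in called regions was 24.1% and 21.5% in WT against 11.8% and 17.8% in cKO. WT lists held 61764 and 54630 regions and cKO lists 35018 and 41443. With every H3K27ac list cut to its 35018 widest regions the domains numbered 544 and their mean cKO cover was 67.5% in place of 67.9%. The part of depth and of the share of tags in regions was not tested. Neither H3f3a nor H3f3b lay in a broad domain. H3K27ac covered 23.9% and 24.1% of the body of H3f3b in WT against 55.4% and 73.6% in cKO, and H3K36me3 10.7% and 14.2% against 39.6% and 33.6%. In H3f3a, H3K27ac covered 16.4% and 16.5% in WT against 26.9% and 20.8% in cKO, and H3K36me3 72.3% and 77.8% against 67.9% and 73.0%. The study reported the loss of H3.3 in cKO BMDMs by PCR, RNA and western blot. The lists used here did not show the deletion of H3f3b, since called regions of both marks covered more of its body in cKO. They hold no read counts, so they cannot decide on the deletion. WT and cKO thus refer to libraries as labelled, and every direction between them rests on the labels.

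The sequences of 4 windows are shown, 300 bases each, centred on the longest stretch that both H3.3-HA libraries covered within a domain and outside exons. Tns3 holds the widest domain and Mbnl1 the largest summed length of domains. Spi1 encodes PU.1, the master transcription factor of macrophages, and its domain stayed covered in cKO. Msr1, the macrophage scavenger receptor, has a domain that was nearly lost, and its window was chosen after the values were seen. All are the plus strand of mm10. Capitals mark matches on either strand to GAGGAAGT (PU.1), TGANTCA (AP-1) or TTGCNNAA (C/EBP). The Tns3 window, at chr11:8576170-8576469, lies in an intron 88.2 kb downstream of the gene start and holds 1 PU.1 match. The Mbnl1 window, at chr3:60568139-60568438, lies in an intron 95.5 kb downstream and holds 2 AP-1 matches. The Spi1 window, at chr2:91082060-91082359, is centred 180 bp upstream of the gene start and holds no match to these letters. The Msr1 window, at chr8:39602328-39602627, lies in an intron 40.2 kb downstream and holds 1 AP-1 match.
Tns3: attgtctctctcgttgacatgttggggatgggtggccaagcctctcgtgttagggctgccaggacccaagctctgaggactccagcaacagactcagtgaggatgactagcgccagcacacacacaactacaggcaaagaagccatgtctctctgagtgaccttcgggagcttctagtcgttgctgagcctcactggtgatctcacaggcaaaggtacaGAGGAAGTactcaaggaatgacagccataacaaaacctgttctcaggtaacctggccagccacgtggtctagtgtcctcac
Mbnl1: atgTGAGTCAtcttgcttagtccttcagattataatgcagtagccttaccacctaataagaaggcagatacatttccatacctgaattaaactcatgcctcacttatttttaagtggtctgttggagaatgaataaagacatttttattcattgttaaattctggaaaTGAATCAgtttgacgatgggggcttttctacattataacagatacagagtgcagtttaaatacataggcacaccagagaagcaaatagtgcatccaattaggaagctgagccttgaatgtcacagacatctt
Spi1: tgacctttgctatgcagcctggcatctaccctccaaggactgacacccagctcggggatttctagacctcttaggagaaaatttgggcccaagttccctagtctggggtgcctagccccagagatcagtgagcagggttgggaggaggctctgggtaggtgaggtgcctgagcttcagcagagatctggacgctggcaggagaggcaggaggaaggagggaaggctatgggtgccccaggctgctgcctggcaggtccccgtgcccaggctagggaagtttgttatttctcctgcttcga
Msr1: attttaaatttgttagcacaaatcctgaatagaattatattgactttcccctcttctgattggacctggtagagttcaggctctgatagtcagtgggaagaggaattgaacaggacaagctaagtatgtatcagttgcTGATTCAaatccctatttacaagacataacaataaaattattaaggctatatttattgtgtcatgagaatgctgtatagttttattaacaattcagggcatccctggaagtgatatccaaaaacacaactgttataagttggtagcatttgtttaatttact

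A wider count used windows of the same length, centred on the longest stretch that both H3.3-HA libraries covered within a region. Exons were not left out here, and a window could reach past the edge of its region. Of the 532 domains with such a window, 3.76% held the PU.1 letters in it, 13.9% the AP-1 letters and 13.2% the C/EBP letters. In 14229 windows chosen in the same way in WT regions under 10 kb these shares were 5.74%, 13% and 13.9%. The median GC content was 43.7% in domains and 43.7% in the regions under 10 kb. The ratio of observed to expected CpG was 0.211 in domains and 0.192 in the regions under 10 kb. These are counts of letters and say nothing of binding.

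The domains were mostly intronic stretches of genes. Their width ran from 10011 to 54760 bp with a median of 12878 bp. Of the 545, 377 (69.2%) were under 15 kb, 69 reached 20 kb and 12 reached 30 kb. The narrowest members, at 10011, 10015 and 10027 bp, lay at Mgme1, in an intergenic stretch of chromosome 6 and in Ampd3. The regions just under the threshold, at 9985, 9990 and 9991 bp, lay at Eepd1, Nisch and Cux1. A single called region of at least 10 kb was present in both WT libraries for 231 domains, and in neither for 61, where shorter overlapping regions joined.

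A protein-coding gene start lay inside 153 domains (28.1%). Another 360 (66.1%) lay in or overlapped a gene body without its start, and 32 (5.87%) were intergenic, at a median of 29.2 kb from the nearest gene start. By length, 80.1% of the domain bases were intronic beyond 1 kb of a start, 4.18% lay within 1 kb of a start, 5.91% in other exons and 9.78% between genes. In WT regions under 10 kb the same shares were 65.3%, 8.53%, 6.88% and 19.3%. Among the 130 domains with 1 gene start, 114 reached further downstream than upstream, with a median of 11.1 kb downstream and 1.88 kb upstream. Start-holding domains therefore ran mainly into the gene.

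The 15 widest domains, named in order, were at Tns3, Bcl2l1, Zeb2, Mbnl1, Dyrk1a, Dgkd, Fnip2, Mbnl1 again, B4galt5, Nceh1, Zmiz1, Cltc, Sh3bp2, Abhd12 and Lgals3. The Tns3 domain (chr11:8563705-8618464) was 54760 bp long and lay in the body of this gene for a focal adhesion protein. It was covered to 96.9% and 97.7% in WT and to 53.9% and 56.9% in cKO. The domain of Bcl2l1 (chr2:152779191-152830528), the gene of the survival factor Bcl-xL, was covered to 99.9% and 97.5% in WT and to 53.9% and 46.6% in cKO. In both genes the domain stood as 1 to 3 regions in each WT library and as 8 to 12 in each cKO library. Zmiz1, a transcriptional coregulator, kept 91.1% and 98.8% of its 31236 bp in cKO. Nceh1, a cholesterol ester hydrolase of macrophages, kept 92.5% and 91.1%, and Cltc, the clathrin heavy chain, 86.8% and 84.7%. Cltc was nevertheless cut into 5 and 4 regions in cKO, from 2 in each WT library, and its longest region went from 26681 and 21924 bp to 7760 and 7623 bp. High cover in cKO thus did not mean an unbroken domain.

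**Figure D1:**
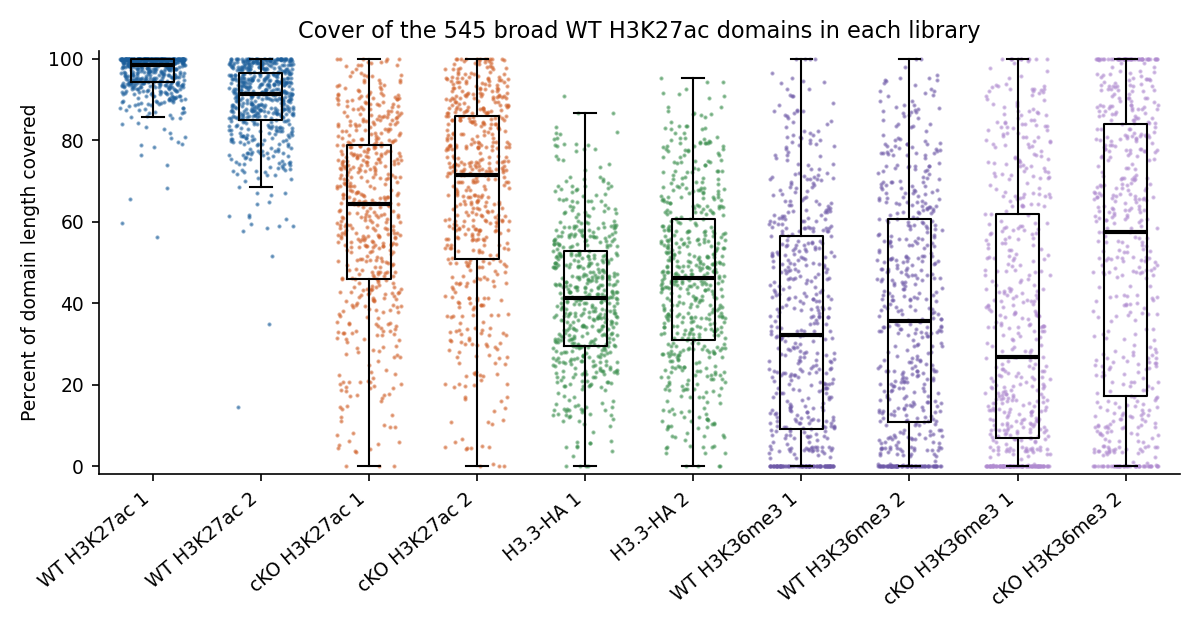
Percent of each of the 545 domains covered by called regions (y axis) in each of the 10 libraries (x axis). Points are domains, boxes give the median and quartiles and whiskers reach 1.5 times the interquartile range. The WT H3K27ac medians are 98.5% and 91.4%, the cKO medians 64.3% and 71.4% and the H3.3-HA medians 41.2% and 46.1%.

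Most of the domain length lay in called H3K27ac regions in the libraries labelled cKO too, but in shorter pieces. The median domain was covered to 98.5% and 91.4% in the WT libraries and to 64.3% and 71.4% in the cKO libraries. The middle 50% of domains lay between 45.9% and 78.8% in cKO 1 and between 50.8% and 85.9% in cKO 2. As a share of the summed length, the cover was 96.6% and 89.9% in WT and 62.2% and 67.1% in cKO, or 64.7% ± 3.45 in cKO (SD, n = 2). The longest region within a domain had a median length of 11835 and 10137 bp in WT and of 5598 and 6460 bp in cKO. A domain held on average 1.35 and 2.0 WT regions and 2.82 and 2.56 cKO regions. In the WT lists alone, 439 and 285 regions reached 10 kb, against 121 and 245 in the cKO lists. The cover of a domain in cKO 1 and cKO 2 had a Spearman correlation of 0.85 across the 545 domains, which share both libraries.

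A domain that was at least 50% covered in both cKO libraries was counted as kept. This held for 362 of 545 domains (66.4%), where 25.6% of all 36327 WT regions met the same rule. Under 10% cover in both cKO libraries was found in 7 domains (1.28%), with 36.4% of all WT regions and 5.33% of those from 5 to 10 kb as background. No cKO region at all was present in 1 domain (0.183%), at Nrp2, with 35.2% of all WT regions and 1.85% of those from 5 to 10 kb as background. A long region has more bases in which a called region can fall, so these shares were read by width. The share kept was 13.9% of regions under 1 kb, 20.3% from 1 to 2 kb, 35.6% from 2 to 5 kb and 54.6% from 5 to 10 kb. Within the domains it was 63.9% from 10 to 15 kb, 68.7% from 15 to 20 kb and 76.8% at 20 kb or more. There was no step at 10 kb, and the domains continued the order seen in narrower regions. In 106 domains (19.4%) under 50% was covered in both cKO libraries, where 57.4% of all WT regions and 29.8% of those from 5 to 10 kb were. The least covered domains are described below by gene.

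**Figure D2:**
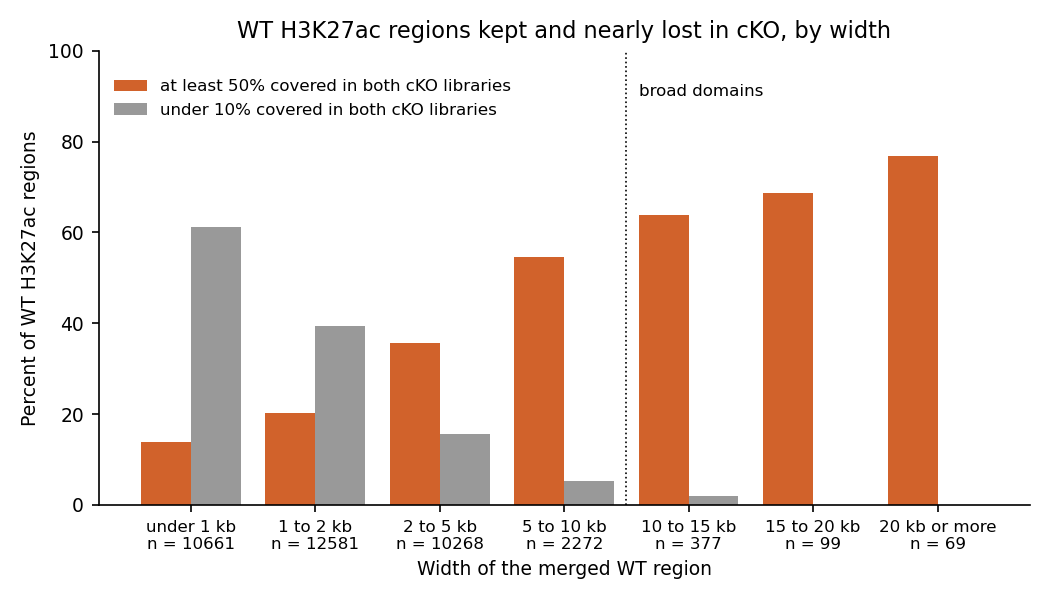
Percent of merged WT H3K27ac regions (y axis) that were at least 50% covered (kept) or under 10% covered in both cKO libraries, by width class (x axis, with the number of regions). The dotted line marks the 10 kb limit of the domains, and the share kept goes from 13.9% in the narrowest class to 76.8% in the widest.

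The domains were chosen in WT libraries, so a lower cover elsewhere is built into the comparison. Domains were therefore also taken from a single library and read in the 3 others. The 439 regions of at least 10 kb of WT 1 were covered to 89.6% of their length in WT 2 and to 64.5% and 68.9% in cKO. The 285 of WT 2 were covered to 96.7% in WT 1 and to 72.4% and 76.5% in cKO. In the other direction, the 121 of cKO 1 were covered to 96.2% in cKO 2 and to 93.9% and 91.0% in WT. The 245 of cKO 2 were covered to 86.6% in cKO 1 and to 87.5% and 83.1% in WT. A broad region chosen in WT was thus less covered in both cKO libraries than in the held-out WT library, by 20.2 to 25.1 percentage points. A broad region chosen in cKO was covered in WT to within 5.2 points of the held-out cKO library. The whole H3K27ac lists differed too, with 89.6 and 74.8 Mb covered in WT and 46.2 and 62.0 Mb in cKO. WT regions under 10 kb were covered to 90.1% and 80.0% of their length in WT and to 36.5% and 45.5% in cKO. The lower cover in cKO was thus not particular to broad domains, and the part of list size in it was not tested.

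Domains that held a gene start stayed more covered than those within gene bodies. Of the 153 with a gene start 118 (77.1%) were kept, and of the 360 in gene bodies 215 (59.7%). Of the 32 intergenic domains 29 (90.6%) were kept. With any protein-coding transcript start counted, 180 of 235 domains (76.6%) were kept, and 182 of the 310 without one (58.7%). The median cover in cKO 1 and cKO 2 was 70.7% and 77.6% with a gene start, 58.8% and 64.9% in gene bodies and 79.3% and 88.6% between genes. The intergenic domains were thus the most covered kind in both cKO libraries. In WT regions of 5 to 10 kb, 76.2% of those with a gene start were kept and 49.6% of those without. The same order was therefore present below 10 kb.

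Cover in cKO was highest around the start itself. Within 2 kb of a gene start 83.3% and 87.3% of the domain bases were covered in cKO, and 60.4% and 65.3% of the other domain bases. In WT these values were 95.6% and 92.8% near starts and 96.7% and 89.6% elsewhere. In the 130 domains with 1 gene start, the first 1 kb downstream was covered to 91.8% and 94.1% in cKO. The cover was 69.2% and 73.6% at 5 to 6 kb and 57.3% and 60.3% at 9 to 10 kb, which 99 of these domains reached. WT cover at 9 to 10 kb was 97.6% and 87.6%. The upstream side was short, and 8 domains reached 9 to 10 kb upstream.

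**Figure D3:**
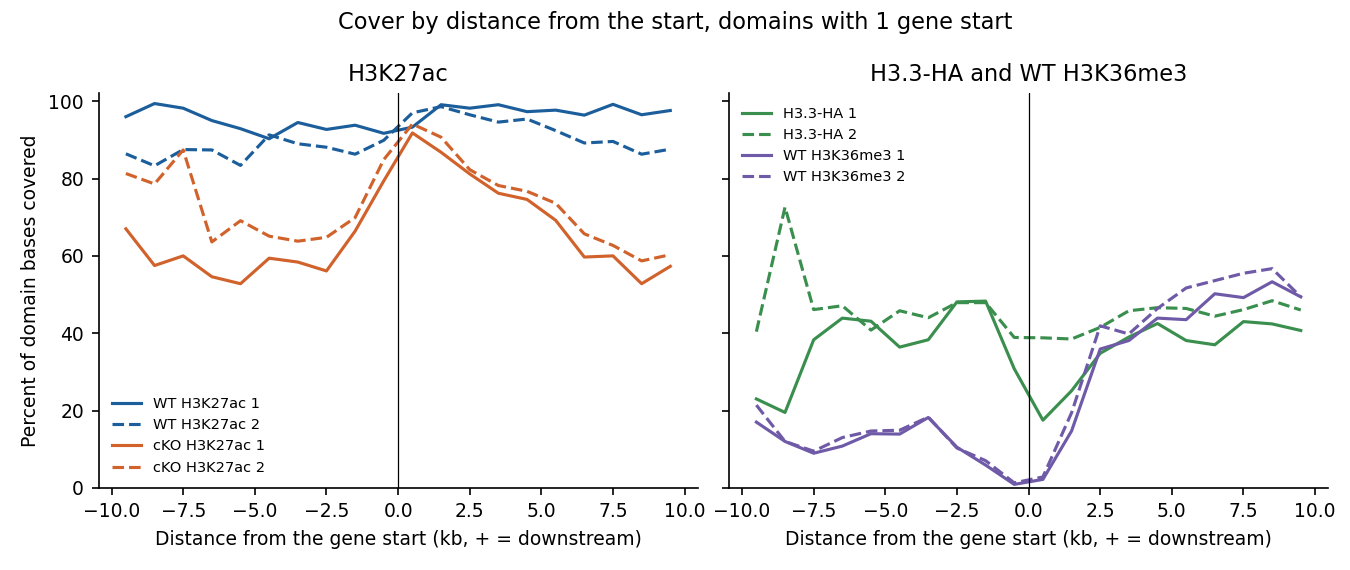
Percent of domain bases covered (y axis) by distance from the gene start in 1 kb bins (x axis, downstream positive) in the 130 domains with 1 gene start. Left, H3K27ac in WT and cKO. Right, H3.3-HA and WT H3K36me3. Solid lines are replicate 1 and broken lines replicate 2. Bins far upstream rest on few domains, 8 at 9 to 10 kb.

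The 10 least covered domains lay in gene bodies, with 1 exception, where 66.1% of all 545 domains did. At Nrp2, a receptor for semaphorins and vascular growth factors, a domain of 10428 bp (chr1:62727865-62738292) was covered to 100% and 70.6% in WT and to 0.0% in both cKO libraries. At its relative Nrp1, a domain of 13971 bp (chr8:128359644-128373614) was covered to 100% and 90.8% in WT and to 5.47% and 0.58% in cKO. Both neuropilin genes thus stood among the 10 least covered domains. Each had a further domain with higher mean cKO cover, 37.4% at Nrp2 and 32.2% at Nrp1. Msr1, which takes up modified lipoproteins, had a domain with 68.4% and 100% in WT and 4.48% in each cKO library. Lpl, the lipoprotein lipase, was the exception, since its domain held the gene start. It was covered to 90.8% and 99.5% in WT and to 12.5% and 5.93% in cKO. The other 6 lay in Farsb, Avl9, Kmt2e, Slc31a2 and Arhgap10, which had 2 of them, with mean cKO cover from 2.49% to 8.89%. H3K36me3 cover of these 10 domains in cKO ran from 4.81% in an Arhgap10 domain to 82.6% at Slc31a2 in cKO 1, and from 4.81% in the same Arhgap10 domain to 100% at Nrp2 and Slc31a2 in cKO 2.

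Gene starts were common among the most covered domains. Of the 10 highest in cKO, 6 held a gene start, 2 were intergenic and 2 lay in gene bodies. Over all 545 domains these shares were 28.1%, 5.87% and 66.1%. Trim25, a ubiquitin ligase of antiviral sensing, was covered to 100% in both cKO libraries over 13250 bp. Mgme1, a mitochondrial nuclease, shares its domain with the start of Snx5 and was covered to 100% in both. Spi1 was covered to 99.2% and 98.3% in WT and to 98.4% and 98.9% in cKO over chr2:91079858-91090796. Fth1, the ferritin heavy chain, had 98.6% and 100% in WT and 98.4% and 100% in cKO, and Glipr1 92.6% and 98.0% in WT and 96.9% and 97.4% in cKO. An intergenic domain 151207 bp from the start of Zeb2 had 100% and 98.1% in cKO. One 58875 bp from the start of Zfp36l2, which promotes mRNA decay, had 94.8% and 99.4%. In these domains WT and cKO values overlapped or lay within a few points. The remaining 3 were at Osbpl8, Fem1c and Rabgap1l.

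Neighbouring domains of 1 gene could differ widely in cKO. Of the 448 genes assigned to the domains, 73 had 2 or more and 15 had 3 or more. Osbpl8, a lipid transfer protein of the endoplasmic reticulum, had 6 domains with 97.4 kb in sum. The domain at its start was covered to 99.2% and 100% in cKO and the intergenic one to 87.1% and 90.3%. Its 4 gene-body domains had mean cKO cover from 19.6% to 55.4%. Zeb2, a transcription factor of macrophage identity, had 84.6% and 87.3% at its start and 65.3% and 72.7% in the third widest domain. A further gene-body domain of Zeb2 had 24.9% and 27.1%, although WT covered it to 86.8% and 100%. Mdfic went from 99.5% and 94.0% at its start to 6.16% and 16.9% in a domain of 24419 bp in its body. Arhgap10 had mean cKO cover of only 7.21% to 35.2% in its 4 domains. The splicing regulator Mbnl1 had 70.3% to 95.6% in 4 domains and the RNA-binding gene Rbm47 77.4% to 88.9% in 4.

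**Figure D4:**
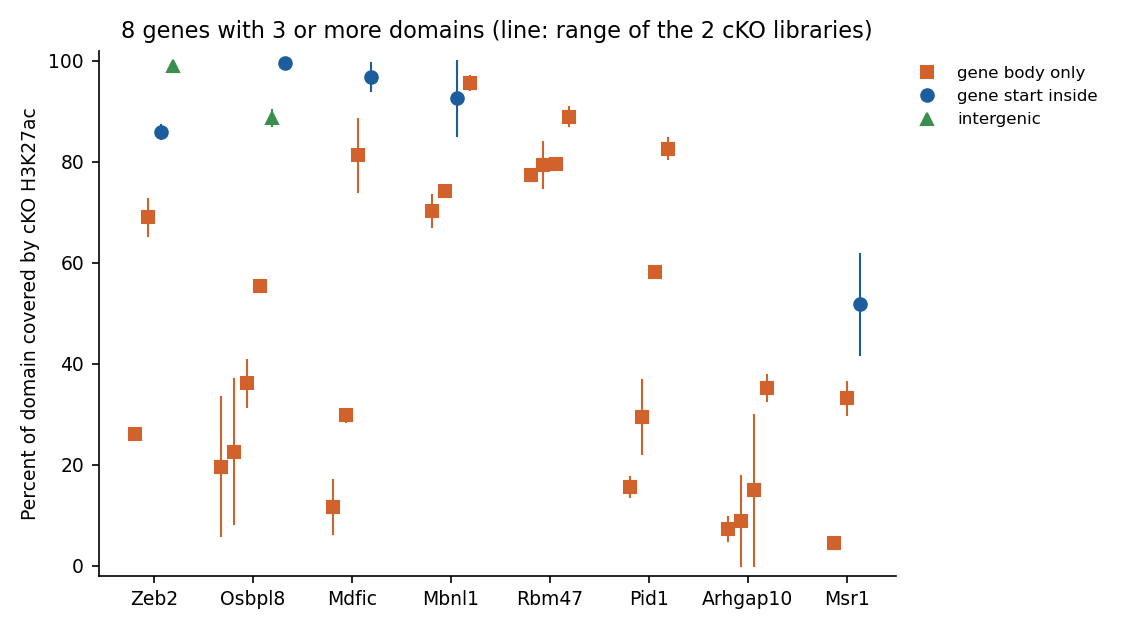
Percent of each domain covered by cKO H3K27ac (y axis) in 8 genes with several domains (x axis). Symbols are the mean of the 2 cKO libraries, lines run from cKO 1 to cKO 2 and shapes give the place of the domain. In Zeb2, Osbpl8, Mdfic and Msr1 the start domain lies above every gene-body domain, and in Mbnl1 it lies above 2 of 3. The other Mbnl1 gene-body domain holds 5 protein-coding transcript starts. Among genes with 3 domains that are not shown, the start domain lay below the gene-body mean in Apbb1ip (52.4% against 67.3%) and Ncoa3 (49.0% against 55.0%). In Cttnbp2nl it lay above (82.2% against 58.5%).

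In 26 genes a start-holding domain and a gene-body domain were both present. Mean cKO cover was higher at the start domain in 19 of them, with a median of 73.5% at start domains and 53.0% at body domains. H3.3-HA cover was higher at the start domain in 9 of the 26, with medians of 38.8% and 49.4%. Lpl went the other way for H3K27ac, with 9.21% at its start domain and 42.3% at the body domain.

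H3.3-HA was present in nearly every domain. The median domain was covered to 41.2% and 46.1% in the 2 H3.3-HA libraries, and 4 domains (0.734%) had no H3.3-HA region in each library. Of all WT regions 44.4% and 47.9% had none, and of those from 5 to 10 kb 5.68% and 7.66%. A longer region has more bases in which an H3.3-HA region can fall, so this presence is not read as a trait of the domains. As a share of summed length the cover was 41.5% and 46.5% in the domains, or 44.0% ± 3.55 (SD, n = 2). In WT regions under 10 kb it was 34.5% and 34.0%, and in those of 5 to 10 kb 39.8% and 42.5%. The highest cover was in a gene-body domain of Lpl (chr8:68894754-68916150), with 86.8% and 86.6%. C5ar1, the receptor for complement C5a, had 80.7% and 91.7%, and Pacsin2, a membrane-bending protein, 77.3% and 94.4%. The lowest were Cep128 and Farsb with 0.0% in both libraries, and Lmbrd2 with 0.0% and 3.27%. The H3.3-HA libraries were shallow, with 6951296 and 5365319 tags, so a stretch without a called region is one not detected at this depth. The values of the 2 H3.3-HA libraries had a Spearman correlation of 0.55 across domains.

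H3.3-HA cover of a whole domain and its cKO H3K27ac cover were close to unrelated, with a Spearman correlation of 0.072 across the 545 domains. Kept domains had median H3.3-HA cover of 41.6% and 47.4%, and the 183 others 40.6% and 44.2%. Within domains the picture differed by base. Of the domain bases 56.8% were covered in both cKO libraries, 15.7% in 1 and 27.5% in neither. H3.3-HA covered 48.2% and 51.3% of the bases covered in both cKO libraries, 35.0% and 43.9% of those in 1, and 31.2% and 38.1% of those in neither. WT 2 H3K27ac covered 96.2%, 87.0% and 78.5% of the same 3 classes, so bases missed in cKO were also called less often in WT. On the 6.95 Mb covered in both WT libraries, a restriction chosen after the data were seen, H3.3-HA covered 49.4% and 52.2% of the bases covered in both cKO libraries and 36.6% and 43.0% of those covered in neither. H3.3-HA was thus more often called on the kept bases in both libraries, by 12.9 and 9.2 percentage points. Within 2 kb of gene starts the order was the opposite, with 24.7% and 35.0% on bases covered in both and 34.0% and 48.3% on bases covered in neither, of which there were 0.0607 Mb. H3.3-HA cover near starts was low in any case, at 25.6% and 36.6% within 2 kb and 42.9% and 47.4% beyond.

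**Figure D5:**
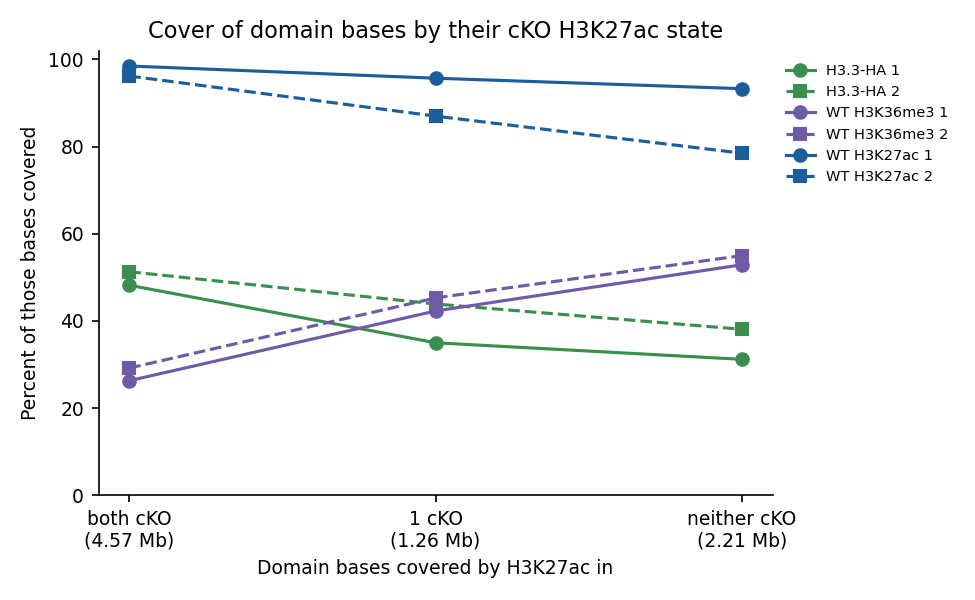
Percent of domain bases covered (y axis) by H3.3-HA, WT H3K36me3 and WT H3K27ac, for bases covered by H3K27ac in both, 1 or neither cKO library (x axis). Solid lines are replicate 1 and broken lines replicate 2. From both to neither, H3.3-HA goes from 48.2% and 51.3% to 31.2% and 38.1%, and WT H3K36me3 from 26.3% and 29.2% to 52.9% and 55.0%.

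H3K36me3 covered a good part of the domains and was highest where H3K27ac was missing in cKO. The summed cover was 36.1% and 38.8% in WT and 37.6% and 54.9% in cKO. WT averaged 37.5% ± 1.92 (SD, n = 2), while cKO averaged 46.2% ± 12.3 (SD, n = 2). The WT minus cKO difference of -8.78 percentage points did not pass a two-sided exact permutation test (p = 0.667). With 2 against 2 libraries the smallest possible p is 0.333, so no difference could have passed. cKO 1 lay between the WT libraries and only cKO 2 stood above them. The cKO 1 list was the smaller one, with 19.3% of its tags in called regions and 90.6 Mb covered. In cKO 2 these values were 46.5% and 163 Mb, and in WT 47.1% and 50.2% of tags and 163 and 170 Mb. The part of this gap in the H3K36me3 difference was not tested. In the 153 domains with a gene start the values were 34.5% and 37.8% in WT and 39.5% and 54.9% in cKO, a difference of -11.0 points (exact permutation p = 0.333), and here the groups did not overlap. WT H3K36me3 covered 26.3% and 29.2% of the domain bases with H3K27ac in both cKO libraries and 52.9% and 55.0% of those with it in neither. WT 2 H3K27ac covered 96.2% and 78.5% of these classes. The H3K36me3 values were not restricted to bases covered in both WT H3K27ac libraries. Across the 545 domains the cKO H3K27ac cover and the WT H3K36me3 cover had a Spearman correlation of -0.26. The median WT H3K36me3 cover was 25.6% and 32.0% in kept domains and 46.0% and 47.1% in the 183 others. H3K36me3 covered 8.17% and 9.25% of domain bases within 2 kb of a start and 38.5% and 41.4% beyond. Beyond 2 kb of a start the difference was as large, with 28.7% and 31.9% of the bases covered by H3K27ac in both cKO libraries and 54.0% and 56.2% of those in neither. Within 2 kb it was 6.69% and 8.08% against 14.9% and 14.3%. The 3 domains with the highest WT H3K36me3 cover lay in Eea1, Sf3b3 and Mdfic, at 94.0% to 100%. Their H3K27ac cover in cKO was 11.1% and 22.1% in Eea1, 54.4% and 55.8% in Sf3b3 and 28.5% and 31.1% in Mdfic.

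The genes of the domains were read against lists of macrophage genes and of other cell types. A start inside a domain was found for 179 of 21728 protein-coding genes, or 0.824%, and a body overlapping a domain for 474, or 2.18%. Of 38 macrophage surface and effector genes 12 had their start in a domain (31.6%). Of 30 macrophage transcription factors 2 did, Zeb2 and Spi1, and 4 more had a domain in their body, Fli1, Mef2a, Mef2c and Mitf. Of 30 actin, Rac and phagocytosis genes 4 had their start in a domain, Pik3r5, Dock8, Dock2 and Tns3, and 13 in all had a domain in their body. The NF-kappaB and inflammatory list had 1 of 35, the chemokine gene Ccl9, and the lipid and sterol list 2 of 35, Plin2 and Hmgcs1. None of the listed 49 interferon response genes, 30 ribosomal protein genes and 35 replication and mitosis genes had a domain. The 4 lists of T cell, B cell, neutrophil, and fibroblast and endothelial markers, with 10 genes each, also had none. At 0.824% of all genes, a count of 0 in lists of this size is near the background. Genes outside the lists could have one, such as the ribosomal protein gene Rps15a, chosen after its values were seen, whose start lay in a domain of 18663 bp. Starts in any WT H3K27ac region were found for 63.2% of the surface and effector genes, 73.3% of the actin and Rac genes, 55.1% of the interferon genes and 15.4% of all protein-coding genes. In each list of another cell type they were found for 0 or 1 of 10, near the share of all genes.

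Members of these lists differed in cKO. The 12 surface and effector genes lay in 11 domains, of which 5 were kept, where 118 of all 153 start-holding domains were. Those kept were at Tyrobp, an adaptor of myeloid receptors (92.2% and 98.3% in cKO), at Ctsd, a lysosomal protease (81.0% and 85.8%), at the galectin gene Lgals3 (66.6% and 75.6%), at Gpnmb (70.3% and 77.6%) and at the lipid receptor Trem2 (72.2% and 66.6%). Those not kept were Msr1 (61.8% and 41.7%), Ptprc (49.3% and 64.4%), Plau (46.6% and 46.0%), Lpl, the complement genes C1qb and C1qc in a shared domain (59.3% and 0.0%) and Lyz2. The C1q domain rested on 1 cKO library only. The Lyz2 domain (chr10:117279321-117289625) was covered to 99.8% and 98.4% in WT and to 22.4% and 41.5% in cKO. Lyz2 is where Cre was inserted in cKO mice and has the near-identical neighbour Lyz1, so its value there cannot be told apart from the altered allele. The 4 actin and Rac domains were all kept. Dock8 and Dock2, exchange factors for small GTPases, had 74.0% and 89.0% and 65.1% and 94.5% in cKO. Pik3r5, a subunit of phosphoinositide 3-kinase gamma, had 64.6% and 64.8%, and the start domain of Tns3 80.3% and 88.2%. Ccl9 kept 67.3% and 72.6% and had H3.3-HA cover of 90.9% and 80.5%. Plin2, a coat protein of lipid droplets, kept 79.7% and 87.3%, while Hmgcs1, an enzyme of sterol synthesis, had 39.4% and 28.6% and H3.3-HA cover of 0.0% and 12.8%.

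The same rule applied to the cKO lists gave 289 broad cKO domains. Of these, 176 (60.9%) overlapped a WT domain, and 176 WT domains (32.3%) overlapped one of them. The widest was at Zmiz1 with 31185 bp, overlapping the WT domain described above. Of the 289, 264 were at least 50% covered in both WT libraries, and 1 was under 10% in both, at Ms4a4c, with 4.98% and 0.0% in WT. The same shares were not taken over narrower cKO regions, so these counts are not read as a trait of broad cKO domains. Among the 113 without a WT domain, those of Psap, Plekho2, Ankrd11 and Inpp5d were the widest, and WT covered them to between 74.5% and 91.5%. Others were low in WT. Ly6a had 18.1% and 13.5% in WT over 13244 bp and 89.1% and 99.9% in cKO. Rsad2, an antiviral enzyme, had 30.6% and 18.9% in WT and 64.5% and 100% in cKO. Irf2bp2 had 14.8% and 27.1% in WT and 69.4% and 100% in cKO. Gene-body domains of Dusp1 (0.0% and 16.0%), Cubn (4.91% and 37.5%) and Acoxl (31.4% and 27.5%) were also low in WT. All these were named after their values were seen. These domains were chosen in cKO, so the low WT values are a description. A start inside a cKO domain was found for 153 genes (0.704% of all protein-coding genes), of which 66 also had a start in a WT domain. From the lists, 7 of 38 surface and effector genes had one, Ctsd, Lgals3 and Tyrobp as in WT and also Ccr2, Ctsb, Mpeg1 and Sirpa. Ctsb and Sirpa had WT domains as well, which began 112 and 37 bp from the gene start, so their difference rested on the edge of a domain. Spi1 and Zeb2 were joined by Junb and Tfec among the transcription factors. Rsad2 was the 1 gene of the 49 on the interferon list. Outside the list, and chosen after their values were seen, the interferon-inducible genes Ifi47 and Ifi207 also had their start in a cKO domain, covered in WT to 74.3% and 71.0% at Ifi47 and to 66.4% and 66.6% at Ifi207.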

How the data were processed

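Region lists of CUT & RUN seq libraries were analysed, 2 per group, grouped by their labels as biological replicates. Reads had been aligned to mm10 with Bowtie2 in local mode, and regions called per library with HOMER in histone mode. Per the file headers, peaks of 500 bp at least 1000 bp apart, a Poisson p of 0.001, 4-fold enrichment over IgG and a Poisson p of 1e-04 over IgG and over 10000 bp of local background were required, and peaks were stitched. The deposited score column is constant at 1, so no height or read count per region could be used, and a region missed in a library may differ little in signal. Control and genotype cannot be told apart, and read depth differed between libraries.

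Overlapping WT regions were merged, coordinates are 1-based, and genes are protein-coding entries of GENCODE M21 on mm10 (21728 symbols, of which 1 interferon list symbol of 50 had none). Covered bases, merging and overlaps were computed with Python 3.11.15, numpy 2.4.6 and pandas 2.3.3, and checked on simulated intervals. Sequences came from RefSeq's GRCm38 assembly through pysam 0.24.0. H3K36me3 was compared with the exact permutation test, and no other contrast was tested, since the domains were chosen in WT H3K27ac. Named genes were those of the 15 widest domains, the 10 least and 10 most covered in cKO, the 3 highest and 3 lowest in H3.3-HA, the 3 highest in WT H3K36me3, and list genes with a start in a domain, up to 8 a list. C1qc, Gpnmb, Lpl and Lyz2 of the surface list, the genes with several domains and those of cKO domains were added after their values were seen. The domains, lists and tests were chosen with earlier results of these data known. Alternatives were other widths, merging gaps and WT criteria, lists of equal number, and leaving out each library.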

Additional observations from a re-analysis of the deposited data

How the results depend on the processing

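The number of domains followed the width limit, with 969 at 8 kb and 168 at 15 kb, and the genes with a start inside followed it, with 277 and 67 in place of 179. Merging WT regions up to 1 kb apart gave 1129 domains and 396 genes, median cKO cover of 53.6% in place of 67.9% and H3.3-HA cover of 37.7% in place of 43.7%. All annotated genes gave 310 starts. Without WT 1 there were 285 domains with 89 genes and 79.7% cKO cover, and without WT 2 there were 439 with 123 genes and 69.7%. Leaving out a cKO library gave 64.3% or 71.4%, and leaving out an H3.3-HA library 41.2% or 46.1% H3.3-HA cover. On bases covered in both WT libraries, H3.3-HA cover of bases kept in cKO exceeded that of bases not kept by 11.0 points in place of 15.1, an alternative chosen after seeing the data. Lists cut to the 35018 widest regions each gave 544 domains and 67.5% cKO cover, but this cut takes away only the narrowest regions.

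For H3K36me3 the replicate block, with the numbers taken as pairs, gave differences of -1.47 and -16.1 points (mean -8.78, exact p = 0.5, the smallest that 2 pairs allow), and nothing in the labels ties the numbers to a shared batch. All 14 alternatives gave a negative difference, and none passed the test (exact p from 0.333 to 1.0). Leaving out single H3K36me3 libraries gave -17.5 to -0.107 points, the first without cKO 1 and the last without cKO 2. The size of this difference thus rested on which cKO library was used. Of these, cKO 1 had 19.3% of its tags in called regions and cKO 2 46.5%. The lists hold no reads, so depth limits what was called and a missing region is not an absent mark.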
